A study of Mus musculus with 15 samples.

Results

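The genes described here are the nuclear genes whose symbols start with Nduf, which code for the subunits and assembly factors of respiratory complex I. They were taken by symbol alone: every probe set that the platform annotation assigns to 1 gene with such a symbol was collected, and each gene was read from its brightest probe set, by the mean over the 15 arrays. This gave 44 genes from 88 probe sets, and 43 of them, of 12701 genes in all, passed the signal filter and were tested. Ndufa4l2, a paralog of Ndufa4, was not tested, with a signal between 17.3 and 151 and a median of 28. A further 10 probe sets shared with another gene were not used.

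RNA came from 1 line of dendritic cells, established from newborn epidermis of the A/J mouse strain, and was read on 15 oligonucleotide arrays. The 5 groups of 3 arrays were cells left non-treated, cells given DNFB (dinitrofluorobenzene, a contact allergen that binds covalently to proteins), cells given H2O2 (hydrogen peroxide, an oxidant), cells given DPI (diphenyleneiodonium, an inhibitor of flavin-dependent enzymes), and cells given DPI + DNFB. The series' design text speaks of a vehicle, whereas the sample titles say non-treated. Doses and exposure times are not given in the sources used here. The labels do not say whether replicates are separate cultures, and the p-values rest on array-to-array spread that may be technical.

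Complex I is the entry point of the mitochondrial respiratory chain: it oxidises NADH at a flavin, passes the electrons through a row of iron-sulfur clusters to ubiquinone, and pumps protons across the inner membrane. Its flavin and its quinone site can both leak electrons to oxygen, and DPI, used mostly against NADPH oxidases, also blocks its flavin. The core subunits carry the catalysis, the accessory subunits surround them, and assembly factors build the enzyme in modules and are absent from the finished complex. In dendritic cells, activation is known for a shift of energy metabolism between respiration and glycolysis.

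The deposited arrays had been scaled to different targets, with a 2% trimmed mean of 250 on 6 arrays (DNFB replicate 3 and each group's replicate 1) and 500 on the remaining 9, so each array was rescaled to 500. At 250 every group has 1 array except DNFB, with 2, so fits within that target take their spread from those 2 arrays alone, with 1 residual degree of freedom, and set 1 array against 1 where DNFB is not a side. At 500 DNFB has 1 array, assumed to vary like the others. Without rescaling, 6 Nduf genes passed in DPI + DNFB against DNFB and 0 in the other comparisons in limma, with 0 to 4 at an unadjusted p below 0.05 in these. All signals below are these rescaled signals, and a log2 change is a difference between group means of log2(signal + 15). The beta-actin 3'/5' ratio, a measure of RNA integrity and of labelling, was 2.07, 1.5 and 2.29 on the DPI + DNFB arrays and between 1.19 and 1.53 on the other 12. Of the dendritic cell markers, Itgax lay between 1960 and 3460, H2-Aa between 27100 and 46100 and Cd74 between 24900 and 54200. H2-Ab1 lay between 7910 and 11400, Ptprc between 9370 and 12700 and Irf8 between 1330 and 4750. Zbtb46 lay between 146 and 313, Epcam between 128 and 421 and Flt3 between 7.65 and 153. Cd207, which marks Langerhans cells, lay between 22.3 and 1090. Of the macrophage markers, Csf1r lay between 4990 and 18600, Adgre1 between 140 and 508 and Mertk between 3.21 and 157. Of the mast cell markers, Kit lay between 368 and 1910, Cpa3 between 8.13 and 129 and Mcpt4 between 6.67 and 55.9. Keratinocyte markers were Krt5 (19.9 to 333), Krt14 (7.25 to 93.4) and Krt1 (5.47 to 88.1). Fibroblast markers were Col1a1 (15 to 117), Col1a2 (65.8 to 231) and Pdgfra (9.16 to 134). T cell markers were Cd3e (9.61 to 158) and Cd3g (7.13 to 79.7). Of these keratinocyte, fibroblast and T cell markers, Krt5 and Col1a2 passed the signal filter. In RNA from whole cultures, fewer cells that express a gene and less of its RNA per cell cannot be told apart.

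With DPI 37 of the 43 Nduf genes had a positive change from non-treated cells, against 6273 of all 12701 genes. With DNFB alone 8 of the 43 did, against 5712 of all genes. Relative to the mean of the non-treated arrays, the median Nduf gene stood at -0.22, -0.27 and -0.13 (log2) on the DNFB arrays and at 0.04, 0.02 and 0 on the H2O2 arrays. It stood at 0.3, 0.21 and 0.31 on the DPI arrays and at 0.48, 0.45 and 0.49 on the DPI + DNFB arrays. The 3 DNFB arrays lay below all non-treated arrays, the 3 DPI arrays above them, and the 3 DPI + DNFB arrays above the DPI arrays, while the median over all 12701 genes stayed between -0.1 and 0.06 on every array.

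**Figure D1:**
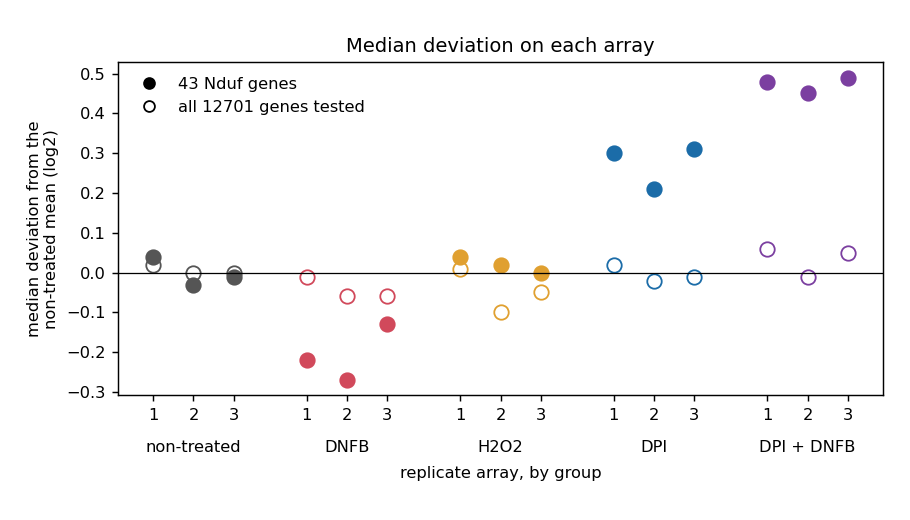
Median deviation from the non-treated mean (log2, y axis) on each of the 15 arrays (x axis, by group and replicate), for the 43 Nduf genes (filled) and for all 12701 genes tested (open). The Nduf median lies between 0.45 and 0.49 on the DPI + DNFB arrays and between -0.27 and -0.13 on the DNFB arrays, while the median of all genes lies between -0.1 and 0.06.

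The signal of these genes sat high on the array: 27 of the 43 were among the 1271 genes with the highest mean signal. Counts over those 1271 genes are therefore given beside the counts over all genes.

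DNFB alone was compared with no treatment, which asks what the allergen did to these genes. Of the 43, 12 fell (27.9%) at an adjusted p below 0.05 in limma and 0 rose, against 13.9% of all genes that fell and 10.5% that rose. At an unadjusted p below 0.05, 17 were lower and 0 higher. Shares of all genes at that unadjusted threshold are not given here, so these counts have no background beside them. The median change was -0.2, against -0.06 over all genes, and the single values ran from -0.59 to 0.29. Among the 1271 genes of highest signal 18.3% fell and 16.1% rose, against 8 and 0 of the 27 Nduf genes there. The genes that fell were 9 of 34 subunits (Ndufs3, Ndufs7, Ndufa5, Ndufa8, Ndufa9, Ndufc2, Ndufb3, Ndufb5 and Ndufb7) and 3 of 8 assembly factors (Ndufaf3, Ndufaf4 and Ndufaf8). Ndufa7 was not called, with a change of 0, but a dimmer probe set of it (mean signal 1504) rose by 0.51 (adjusted p = 0.0136). Its remaining probe sets gave 0.1, -0.05 and 0.14 and did not pass.

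This count was sensitive to single arrays. It was 7 without non-treated replicate 2, 6 without non-treated replicate 3, 5 without DNFB replicate 1 and 4 without DNFB replicate 2. Within the arrays scaled to 500, which hold 1 DNFB array, 0 passed in limma and 13 had an unadjusted p below 0.05. Within the arrays scaled to 250, with 1 non-treated array, it was 1 (6 unadjusted), and with the scaling target as a block it was 12. Centring each array on its median gave 5, beside 10.9% of all genes that fell under that centring.

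With H2O2, compared with no treatment, 34 of the 43 Nduf genes did not pass the test. It called 7 lower and 2 higher of 43 (16.3% and 4.65%), against 17.4% and 10.9% of all genes, and the median was 0.01 against -0.06. Those that fell were 4 core subunits (Ndufs3, Ndufs7, Ndufv1 and Ndufv2) and 3 assembly factors (Ndufaf3, Ndufaf7 and Ndufaf8), and those that rose were the accessory subunit Ndufa1 and the assembly factor Ndufaf1. None of the 28 accessory subunits was lower at the adjusted threshold or at an unadjusted p below 0.05. Among the 1271 genes of highest signal 13.6% fell and 20.7% rose, against 3 and 1 of the 27 Nduf genes there. On the arrays scaled to 500 alone the test called 1 lower and 2 higher, within those scaled to 250 (1 array against 1) it called 4 lower, and without non-treated replicate 3 it called 5 lower. With each array centred on its median the split was 6 lower and 0 higher, beside 16.4% and 8.68% of all genes.

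DPI alone was compared with no treatment, which asks what the inhibitor did to the genes of a flavoenzyme that it blocks. Of the 43, 17 rose (39.5%) and 5 fell (11.6%), against 13.3% and 18.4% of all genes, with a median of 0.27 against -0.01. All 34 subunits had a positive change, between 0.07 and 1.52, against 6273 of all 12701 genes. Of the 34, 16 passed, all of them accessory subunits, and 0 were lower because every change was positive. Of the core subunits, 0 of the 3 that oxidise NADH and 0 of the 3 that reduce quinone passed by their chosen probe set. Of the 8 assembly factors 5 fell (Ndufaf1, Ndufaf3, Ndufaf4, Ndufaf7 and Ndufaf8), and Ndufaf2 rose. The genes of highest signal also rose often here: 31.2% of the 1271 did and 14.4% fell, against 14 and 0 of the 27 Nduf genes among them. With the arrays scaled to 500 alone, 9 rose and 1 fell, and with those scaled to 250 alone, 1 array against 1, the test called 8 higher and 2 lower. Without the 3 DPI + DNFB arrays in the fit, 18 rose and 5 fell, and with cyclic loess normalization 10 rose and 4 fell.

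The same inhibitor was then compared in cells that also had the allergen, DPI + DNFB against DNFB. Here 34 of 43 rose (79.1%) and 2 fell (4.65%), against 22.9% and 21.3% of all genes, with a median of 0.58 against 0.1. Again all 34 subunits had a positive change, from 0.02 to 1.7, against 7064 of all 12701 genes. Of the 34, 30 passed, while 4 assembly factors rose and 2, Ndufaf1 and Ndufaf4, fell. Of the 1271 genes of highest signal 42.2% rose and 26.3% fell, against 24 and 0 of the 27 Nduf genes. In the arrays scaled to 500 the test called 31 higher and 1 lower, and in those scaled to 250, 1 DPI + DNFB array against 2 DNFB arrays, it called 27 higher and 2 lower.

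How the arrays are centred bears on every comparison with the DPI + DNFB group. Centring each array on its median moved the median of all genes from 0.1 to -0.17 in DPI + DNFB against DNFB, from 0.08 to -0.17 in DPI + DNFB against DPI and from 0.14 to -0.14 in the interaction. The Nduf median moved along, so that relative to all genes it was 0.48, 0.09 and 0.18 under both centrings. The split of calls became 19 higher and 3 lower against DNFB, where 12.7% of all genes were higher and 30% lower. Against DPI it became 7 higher and 10 lower, beside 5.24% and 22.5% of all genes. In the interaction it became 8 higher and 2 lower, beside 8.65% and 19% of all genes. With the beta-actin ratio as a covariate, 27 were higher and 1 lower against DNFB, beside 11.3% and 11.6% of all genes. Against DPI 1 was higher, and the calls over all genes went from 3530 to 541 (2.11% higher and 2.15% lower). In the interaction 11 were higher, beside 10.9% of all genes. That covariate ended the call of all 8 genes with the largest rises and falls against DPI (Ndufs7, Ndufv3, Ndufaf8, Ndufa5, Ndufb1, Ndufa9, Ndufs1 and Ndufs4), while the Nduf median was 0.15 with it and 0.17 without. The changes themselves moved unequally: Ndufa9 stayed at -0.58 and Ndufs1 went from -0.4 to -0.56, Ndufaf8 from 0.79 to 0.65, Ndufa5 from 0.78 to 0.56 and Ndufb1 from -0.88 to -0.66, whereas Ndufs7 went from 0.94 to 0.5, Ndufv3 from 0.83 to 0.4 and Ndufs4 from -0.38 to -0.06.

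Adding DNFB to cells that had DPI gave 15 higher (34.9%) and 5 lower (11.6%) of 43, against 14.1% and 13.7% of all genes. The median was 0.17 against 0.08. Among the 1271 genes of highest signal 21.6% rose and 22.7% fell, against 10 and 2 of the 27 Nduf genes there. The 5 that fell were the subunits Ndufs1, Ndufs3, Ndufs4, Ndufa9 and Ndufb1. The 15 that rose were 12 subunits and the assembly factors Ndufaf3, Ndufaf4 and Ndufaf8. In some genes that were not called, another probe set passed. It was lower for Ndufb5 (-0.6, adjusted p = 0.00293), Ndufa7 (-0.65, 0.0216), Ndufb6 (-0.44, 0.0168) and Ndufb11 (-0.41, 0.0425). A dimmer one of Ndufa7 (0.55, 0.00783) and one of Ndufb9 (0.37, 0.0374) were higher. Within the arrays scaled to 500 the test called 10 higher and 3 lower, within those scaled to 250 (1 array against 1) it called 6 higher and 1 lower, and without DPI + DNFB replicate 3 it called 10 higher and 3 lower.

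The interaction tests whether the effect of DNFB depended on DPI, as the effect in DPI-treated cells minus that in cells without DPI. It passed as positive for 16 of 43 genes (37.2%) and as negative for 1 (2.33%), against 17.3% and 13.8% of all genes. Its median was 0.32 against 0.14. Over the 1271 genes of highest signal it passed as positive for 25% and as negative for 22.2%, against 11 and 0 of the 27 Nduf genes. Among the arrays scaled to 500 it was called for 13 genes, all positive, and within those scaled to 250, with 1 array in 3 of the 4 groups, for 7, all positive. Of the genes that fell with DNFB alone, Ndufs7, Ndufa5, Ndufb7, Ndufaf3, Ndufaf4 and Ndufaf8 rose with DNFB in DPI-treated cells. That reversal was seen in 6 of 43 Nduf genes and in 3.2% of all genes.

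**Figure D2:**
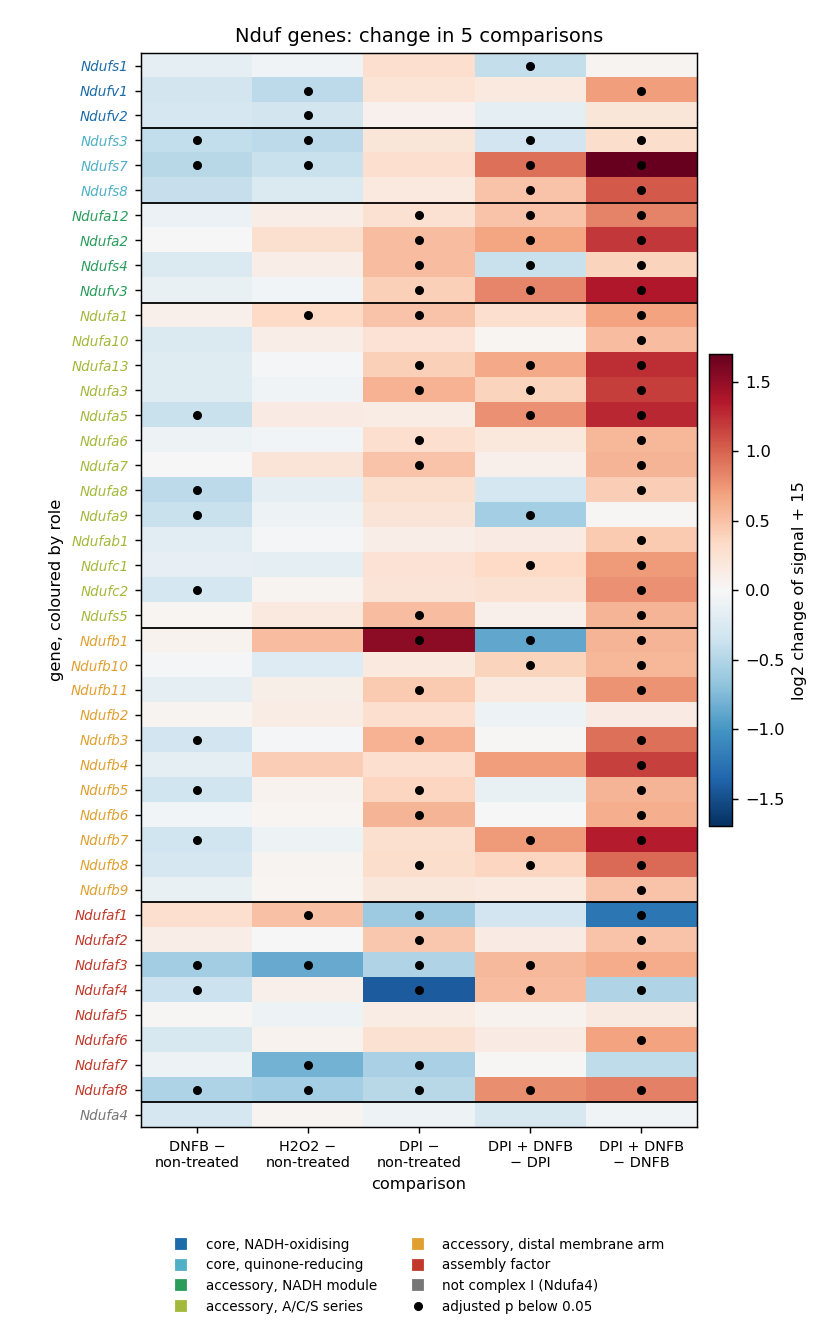
Log2 change of the 43 Nduf genes (rows, grouped by role) in 5 comparisons (columns), with red for higher and blue for lower and a dot where the adjusted p was below 0.05. The DPI + DNFB against DNFB column is positive for all 34 subunits, with 30 dots, while the assembly factors below them are of mixed sign.

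The NADH-oxidising core was measured through Ndufv1, which binds the flavin, Ndufv2, which carries an iron-sulfur cluster beside it, and Ndufs1, the large subunit that holds further clusters. Ndufv1 had signals of 2980, 2837 and 2887 in non-treated cells, 2269, 2272 and 2466 with DNFB, 1870, 2456 and 2126 with H2O2, 3475, 3167 and 3565 with DPI, and 3778, 3405 and 4358 with DPI + DNFB. The H2O2 arrays lay below and the DPI and DPI + DNFB arrays above the non-treated ones, but the change with DPI alone, 0.23, did not pass. Its fall with H2O2 was -0.44 ± 0.115 (SE, adjusted p = 0.00658) and its rise in DPI + DNFB against DNFB 0.71 ± 0.115 (adjusted p = 4.43e-05). The DNFB arrays were also all below the non-treated ones, with a change of -0.31 that missed the threshold (adjusted p = 0.0533).

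Ndufs1 behaved differently from Ndufv1 in the combination. Its signals were 2892, 2943 and 2829 in non-treated cells, 2482, 2963 and 2284 with DNFB, 2594, 2703 and 3019 with H2O2, 3324, 3560 and 3627 with DPI, and 2854, 2611 and 2496 with DPI + DNFB. All 3 DPI arrays exceeded every other array, a difference from non-treated of 0.28 with an adjusted p of 0.0583, and the DPI + DNFB arrays overlapped the non-treated and DNFB arrays. The drop from DPI to DPI + DNFB was -0.4 ± 0.108 (adjusted p = 0.00923), and the change against DNFB was 0.05 (adjusted p = 0.747).

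Ndufv2, read from its brightest probe set, passed in the H2O2 comparison alone. It read 6184, 5523 and 6006 in non-treated cells, 5206, 4359 and 4970 with DNFB, 5031, 4661 and 4600 with H2O2, 6776, 5817 and 6006 with DPI, and 5342, 6331 and 5070 with DPI + DNFB. The H2O2 arrays lay below all non-treated arrays (-0.31 ± 0.107, adjusted p = 0.0371), and both groups that had DPI overlapped the non-treated ones. Both other probe sets of Ndufv2 differed from this: with H2O2 they did not pass (-0.25 and -0.49, adjusted p = 0.0942 and 0.121), but in DPI + DNFB against DNFB they rose by 0.68 (adjusted p = 4.11e-05) and 1.02 (adjusted p = 0.000963), where the brightest gave 0.2, and they passed in the interaction (0.47 and 0.95, adjusted p = 0.0255 and 0.03).

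The quinone-reducing core held the largest rise of any Nduf gene in the combination. Ndufs7 carries the last iron-sulfur cluster before ubiquinone, and its gene lies at chr10:80249105-80256794 (GRCm38.p6). Its signals were 3215, 3711 and 3313 in non-treated cells, 2193, 2693 and 2485 with DNFB, 2383, 2679 and 2790 with H2O2, 4614, 3513 and 4346 with DPI, and 7705, 6830 and 9595 with DPI + DNFB. The DPI + DNFB arrays were above all 12 others, and the DNFB and H2O2 arrays below all non-treated ones, whereas the DPI arrays overlapped the non-treated ones.

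DPI + DNFB was 3.24-fold above DNFB for Ndufs7 (1.7 ± 0.132, adjusted p = 7.14e-09) and 1.92-fold above DPI (0.94 ± 0.132, adjusted p = 4.58e-05). DNFB alone lowered it 1.39-fold (-0.47 ± 0.132, adjusted p = 0.0113) and H2O2 1.3-fold (-0.38 ± 0.132, adjusted p = 0.0355). The call with DNFB was lost without non-treated replicate 2 (adjusted p = 0.0576) or DNFB replicate 1 (adjusted p = 0.0637). The difference between the effects of DNFB with and without DPI was 1.42 ± 0.187 (adjusted p = 1.08e-05). Another probe set of the gene gave 1.19 against DNFB (adjusted p = 1.64e-06) and 0.45 against DPI (adjusted p = 0.023).

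Ndufs8, which carries the clusters that feed it, had signals of 6745, 10688 and 8075 in non-treated cells, 6442, 6541 and 6089 with DNFB, 6149, 7344 and 7869 with H2O2, 8930, 11152 and 8207 with DPI, and 12078, 11441 and 16224 with DPI + DNFB. The DPI + DNFB arrays again topped all others, by 1.04 ± 0.159 against DNFB (adjusted p = 2.48e-05). The DNFB arrays were all below the non-treated ones, with a change of -0.39 and an adjusted p of 0.0808. With DPI alone the change was 0.16 and did not pass, but 3 of the 5 other probe sets of Ndufs8 rose (0.4, 0.46 and 0.49, adjusted p between 0.00704 and 0.0252).

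Ndufs3, which forms a large part of the arm that reaches the quinone site, did not share the rise in the combination against DPI. It read 4238, 3829 and 3845 in non-treated cells, 3202, 2651 and 3083 with DNFB, 2895, 3229 and 2648 with H2O2, 4864, 4297 and 4604 with DPI, and 3663, 3694 and 3650 with DPI + DNFB. DNFB and H2O2 each lowered it on all 3 arrays, by -0.42 ± 0.104 (adjusted p = 0.00541) and -0.44 ± 0.104 (adjusted p = 0.00301). DPI + DNFB lay below DPI (-0.32 ± 0.104, adjusted p = 0.0272) and above DNFB (0.3 ± 0.104, adjusted p = 0.023).

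The 4 accessory subunits of the NADH-oxidising module all rose with DPI alone (Ndufa2, Ndufa12, Ndufs4 and Ndufv3, by 0.26 to 0.53). They also all rose in DPI + DNFB against DNFB (0.38 to 1.36). Of all genes 13.3% and 22.9% rose in these 2 comparisons, and of those of highest signal 31.2% and 42.2%. Ndufv3 lies against the flavin subunit. Its signals were 8145, 7202 and 6794 in non-treated cells, 7435, 6609 and 6247 with DNFB, 7587, 7034 and 6921 with H2O2, 11550, 8307 and 9573 with DPI, and 19760, 13605 and 19259 with DPI + DNFB. The DPI + DNFB arrays stood apart from all others, 2.56-fold above DNFB (1.36 ± 0.139, adjusted p = 2.18e-07) and 1.78-fold above DPI (0.83 ± 0.139, adjusted p = 0.000229).

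Ndufs4, needed for a stable NADH module, went the other way in the combination. It read 2256, 1946 and 1872 in non-treated cells, 1701, 1614 and 1802 with DNFB, 2087, 2392 and 2058 with H2O2, 3085, 2715 and 2890 with DPI, and 2256, 2614 and 1862 with DPI + DNFB. The DPI arrays exceeded every other array, at 0.52 ± 0.124 above non-treated (adjusted p = 0.00326). The fall from DPI to DPI + DNFB, -0.38 ± 0.124 (adjusted p = 0.028), was lost without DPI replicate 1 (adjusted p = 0.0953), DPI replicate 3 (0.071), DPI + DNFB replicate 1 (0.054) or DPI + DNFB replicate 3 (0.16). Quantile normalization, cyclic loess and the mean of the probe sets of Ndufs4 also ended it (adjusted p = 0.0846, 0.076 and 0.145), and another probe set gave 0.26 (adjusted p = 0.279).

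**Figure D3:**
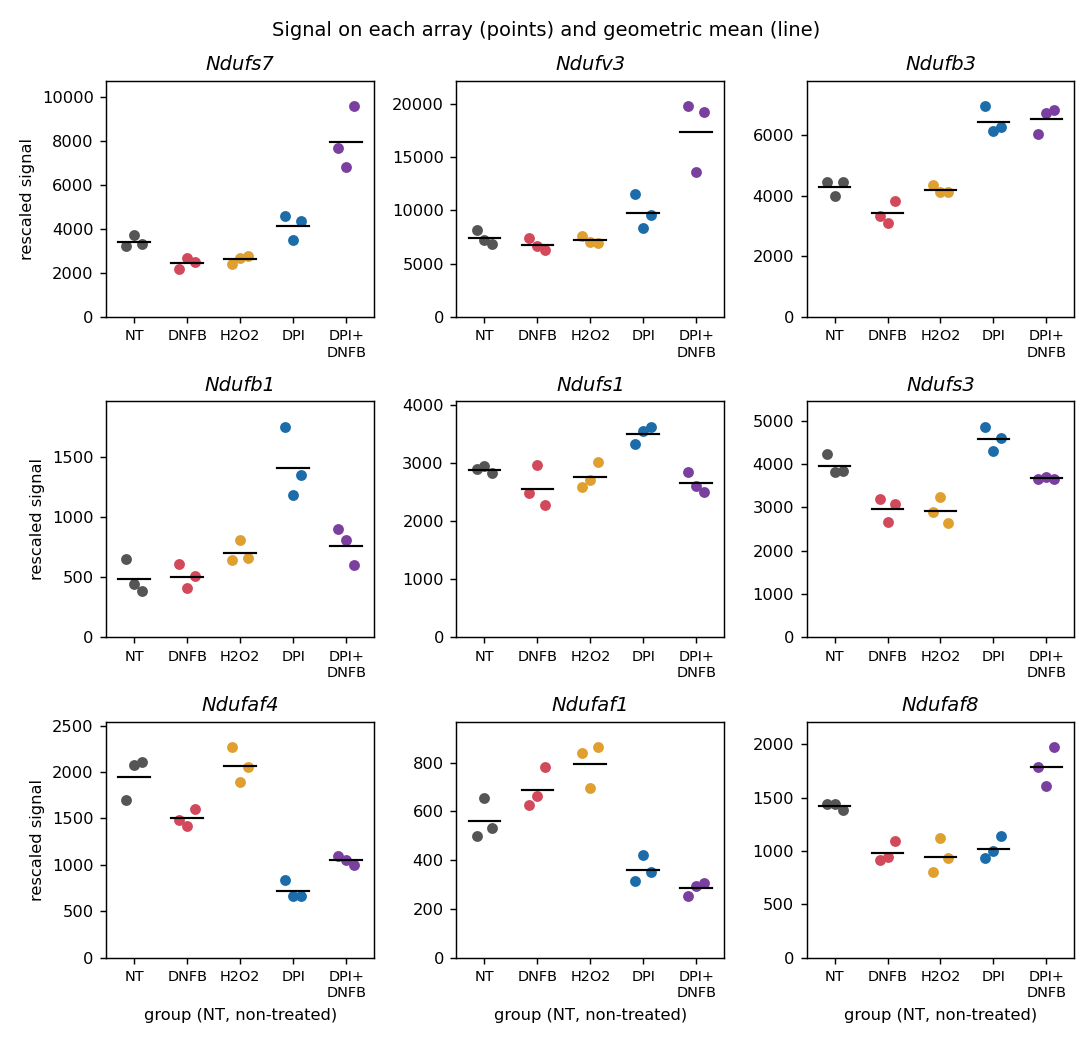
Rescaled signal (y axis, linear, from 0) of 9 Nduf genes on each array (points) by group (x axis, NT for non-treated), with the geometric mean of each group as a line. Ndufs7 reaches 6830 to 9595 with DPI + DNFB against at most 4614 elsewhere, while Ndufaf4 drops to between 666 and 842 with DPI.

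Of the other 13 accessory subunits of the A, C and S series, 6 rose with DPI alone and 12 in DPI + DNFB against DNFB. The shares of all genes that rose were 13.3% and 22.9%, and of those of highest signal 31.2% and 42.2%. Ndufa5, part of the quinone module, had signals of 2206, 2179 and 2785 in non-treated cells, 1718, 1717 and 2054 with DNFB, 2659, 2482 and 2726 with H2O2, 2450, 2593 and 2706 with DPI, and 4153, 3826 and 5506 with DPI + DNFB. DNFB arrays were lowest and DPI + DNFB arrays highest, without overlap between these and the remaining groups. DNFB lowered it by -0.38 ± 0.132 (adjusted p = 0.0424) alone and raised it by 0.78 ± 0.132 (adjusted p = 0.000261) in DPI-treated cells, and the difference of these effects was 1.16 ± 0.187 (adjusted p = 9.75e-05).

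Ndufa9, at the joint between the matrix and membrane arms, also fell in the combination against DPI. Its signals were 5573, 5536 and 5670 in non-treated cells, 4120, 3952 and 4860 with DNFB, 5032, 5885 and 4940 with H2O2, 6321, 6523 and 6760 with DPI, and 4314, 4108 and 4662 with DPI + DNFB. Both groups with DNFB lay below all non-treated arrays and overlapped each other (0.02, adjusted p = 0.891). The change with DNFB was -0.38 ± 0.102 (adjusted p = 0.00902) alone and -0.58 ± 0.102 (adjusted p = 0.000343) in DPI-treated cells.

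Ndufa8, a subunit with paired cysteines that faces the intermembrane space, read 6329, 5086 and 5577 in non-treated cells, 4482, 3617 and 4374 with DNFB, 4857, 5730 and 4688 with H2O2, 7339, 5834 and 7423 with DPI, and 5662, 5221 and 5751 with DPI + DNFB. The DNFB arrays were the lowest of all. Their fall of -0.45 ± 0.122 (adjusted p = 0.0105) was lost without non-treated replicate 1 (adjusted p = 0.0636) or DNFB replicate 2 (adjusted p = 0.0722).

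Ndufa1, a small membrane subunit, was the accessory subunit that rose with H2O2. It read 16226, 13933 and 14330 in non-treated cells, 15979, 14227 and 16833 with DNFB, 17744, 19216 and 19410 with H2O2, 23525, 17462 and 21201 with DPI, and 23098, 25600 and 26871 with DPI + DNFB. The H2O2 and DPI arrays all exceeded the non-treated ones. The rise with H2O2, 0.34 ± 0.116 (adjusted p = 0.0314), was lost when non-treated replicate 2 or 3 or H2O2 replicate 2 or 3 was left out (adjusted p between 0.0862 and 0.117). It was 0.18 (adjusted p = 0.16) with quantile normalization and 0.16 (adjusted p = 0.254) with cyclic loess, whereas the rise with DPI was 0.48 ± 0.116 (adjusted p = 0.00368).

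Ndufa3, another small membrane subunit, had 8867, 7519 and 6896 in non-treated cells, 7269, 5874 and 7053 with DNFB, 8097, 7802 and 6389 with H2O2, 13072, 9784 and 12213 with DPI, and 15949, 13691 and 15700 with DPI + DNFB. Every array with DPI exceeded every array without it. The rise with DPI was 0.59 ± 0.132 (adjusted p = 0.0019), and another bright probe set gave 0.53 (adjusted p = 0.00244). A dim one, with a mean signal of 85, gave -0.38 (adjusted p = 0.585), and with the mean of the probe sets the rise of Ndufa3 was 0.25 and did not pass (adjusted p = 0.205).

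In the distal membrane arm, 6 of 11 accessory subunits rose with DPI alone and 10 of 11 in DPI + DNFB against DNFB. Of all genes 13.3% and 22.9% rose in these comparisons, and of those of highest signal 31.2% and 42.2%. The 10 include Ndufb4, a dim gene with signals between 43.5 and 165 over the arrays. Ndufb1, among the smallest subunits of the complex, showed the largest rise of any Nduf gene with DPI alone (chr12:101968096-101975738, GRCm38.p6). Its signals were 652, 447 and 384 in non-treated cells, 613, 409 and 508 with DNFB, 642, 811 and 656 with H2O2, 1753, 1183 and 1353 with DPI, and 905, 807 and 605 with DPI + DNFB. The DPI arrays were well clear of all others, while the DPI + DNFB arrays overlapped the DNFB and H2O2 arrays.

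DPI raised Ndufb1 2.87-fold (1.52 ± 0.207, adjusted p = 1.34e-05), and DPI + DNFB was 1.84-fold below DPI (-0.88 ± 0.207, adjusted p = 0.00373). It was the one Nduf gene of the 6 with a negative interaction that passed the test, -0.94 ± 0.293 (adjusted p = 0.0191). That call was lost without non-treated replicate 3 (adjusted p = 0.0607), DNFB replicate 1 (0.0568), DPI replicate 1 (0.0596) or DPI + DNFB replicate 3 (0.0572).

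Ndufb3, Ndufb6 and Ndufb7 sit in the same arm. Ndufb3 read 4431, 3993 and 4432 in non-treated cells, 3328, 3108 and 3826 with DNFB, 4355, 4116 and 4106 with H2O2, 6945, 6124 and 6264 with DPI, and 6036, 6711 and 6823 with DPI + DNFB. All arrays with DPI lay above all arrays without it, whether DNFB was present or not, by 0.59 ± 0.101 without DNFB (adjusted p = 0.000173) and 0.93 ± 0.101 with it (adjusted p = 4.47e-07).

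Ndufb6 read 7491, 9355 and 9818 in non-treated cells, 8111, 8215 and 9384 with DNFB, 9461, 8056 and 9542 with H2O2, 11842, 13340 and 14555 with DPI, and 12317, 12398 and 14867 with DPI + DNFB. It too separated cleanly by DPI, with 0.58 ± 0.122 without DNFB (adjusted p = 0.00112) and 0.62 ± 0.122 with it (adjusted p = 0.000353). The other probe set of Ndufb6 gave 0.51 (adjusted p = 0.00529) and 0.18 (adjusted p = 0.279), and it fell in DPI + DNFB against DPI (-0.44, adjusted p = 0.0168), where the first gave -0.01.

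Ndufb7, another intermembrane-space subunit with paired cysteines, had 6844, 7813 and 7518 in non-treated cells, 5532, 5468 and 6490 with DNFB, 6330, 7840 and 6915 with H2O2, 8726, 8795 and 9237 with DPI, and 14312, 12361 and 17876 with DPI + DNFB. The groups stood in the order DNFB, non-treated, DPI, DPI + DNFB without overlap between these 4, although DPI against non-treated missed the threshold (0.27, adjusted p = 0.104). The rise in DPI + DNFB against DNFB was 2.52-fold (1.33 ± 0.123, adjusted p = 5.96e-08).

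The single member that is no complex I subunit, Ndufa4, is now counted with complex IV. It passed in none of the 6 tests, with changes between -0.29 and 0.05, and at an unadjusted p below 0.05 it also passed in none.

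The assembly factors moved in their own ways. Ndufaf4 helps build the quinone module together with Ndufaf3, and its gene lies at chr4:24898083-24905001 (GRCm38.p6). Its signals were 1695, 2077 and 2105 in non-treated cells, 1482, 1422 and 1602 with DNFB, 2269, 1894 and 2060 with H2O2, 842, 666 and 669 with DPI, and 1097, 1055 and 1000 with DPI + DNFB. All arrays with DPI lay below all arrays without it.

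DPI lowered Ndufaf4 2.67-fold, the largest fall of any Nduf gene with DPI alone (-1.42 ± 0.127, adjusted p = 8.86e-08). With DNFB present the fall was smaller (-0.51 ± 0.127, adjusted p = 0.00266), and the difference between these effects was 0.91 ± 0.179 (adjusted p = 0.000642). Another probe set of the gene also fell with DPI (-1.05, adjusted p = 0.00084) and in DPI + DNFB against DNFB (-0.73, adjusted p = 0.00905), but in DPI + DNFB against DPI it gave -0.12 (adjusted p = 0.728) where the first gave 0.53.

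Ndufaf1, which works in the assembly of the membrane arm with Ecsit and Acad9, was low in both groups that had DPI. It read 501, 655 and 534 in non-treated cells, 628, 663 and 784 with DNFB, 841, 696 and 864 with H2O2, 313, 422 and 353 with DPI, and 254, 295 and 307 with DPI + DNFB. The arrays with DPI lay below all others and those with H2O2 above the non-treated ones.

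The fall of Ndufaf1 was 1.53-fold with DPI alone (-0.62 ± 0.168, adjusted p = 0.00817), and without non-treated replicate 2 its adjusted p was 0.0551. With DNFB present it was 2.35-fold (-1.23 ± 0.168, adjusted p = 6.78e-06). The rise with H2O2 (0.5 ± 0.168, adjusted p = 0.0313) was lost without non-treated replicate 1 or 3 or H2O2 replicate 1 or 3 (adjusted p between 0.0921 and 0.122).

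Ndufaf3 and Ndufaf8 were the members lowered by each of the 3 single compounds, a pattern of 2 of 43 Nduf genes and 3.87% of all genes. Ndufaf3 read 1098, 1139 and 914 in non-treated cells, 675, 646 and 754 with DNFB, 579, 613 and 516 with H2O2, 638, 758 and 800 with DPI, and 979, 1152 and 1098 with DPI + DNFB. Each single compound gave values below all non-treated arrays, and the combination overlapped the non-treated ones. The falls were -0.59 ± 0.139 with DNFB (adjusted p = 0.0035), -0.86 ± 0.139 with H2O2 (adjusted p = 9.09e-05) and -0.51 ± 0.139 with DPI (adjusted p = 0.00789).

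Ndufaf8 is a partner of Ndufaf5, the enzyme that hydroxylates the Ndufs7 protein (chr11:120098934-120100424, GRCm38.p6). Its signals were 1438, 1445 and 1384 in non-treated cells, 916, 945 and 1091 with DNFB, 805, 1119 and 936 with H2O2, 935, 1002 and 1145 with DPI, and 1791, 1610 and 1975 with DPI + DNFB. All single-compound arrays lay below the non-treated ones and all DPI + DNFB arrays above them. The interaction was 1.32 ± 0.19 (adjusted p = 2.83e-05). A dimmer probe set of the gene kept the sign in every comparison but did not pass (interaction 0.76, adjusted p = 0.198), and the mean of both probe sets ended the calls with DNFB (adjusted p = 0.256) and with H2O2 (adjusted p = 0.126).

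Ndufaf7, an arginine methyltransferase that acts during assembly, read 575, 580 and 489 in non-treated cells, 501, 452 and 593 with DNFB, 288, 346 and 294 with H2O2, 361, 354 and 393 with DPI, and 447, 414 and 285 with DPI + DNFB. The H2O2 and DPI arrays lay below the non-treated ones. The fall was -0.8 ± 0.184 with H2O2 (adjusted p = 0.00261) and -0.55 ± 0.184 with DPI (adjusted p = 0.0278), the latter lost without non-treated replicate 1 or 2 or DPI replicate 1 or 2 (adjusted p between 0.0701 and 0.0923), or with quantile normalization (0.148) or cyclic loess (0.114). Of the remaining assembly factors, Ndufaf2 rose with DPI both without and with DNFB (0.46 and 0.49), Ndufaf6 rose in DPI + DNFB against DNFB (0.68, adjusted p = 0.0064), and Ndufaf5 ranged from -0.09 to 0.15 over the pairwise comparisons and passed in none.

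**Figure D4:**
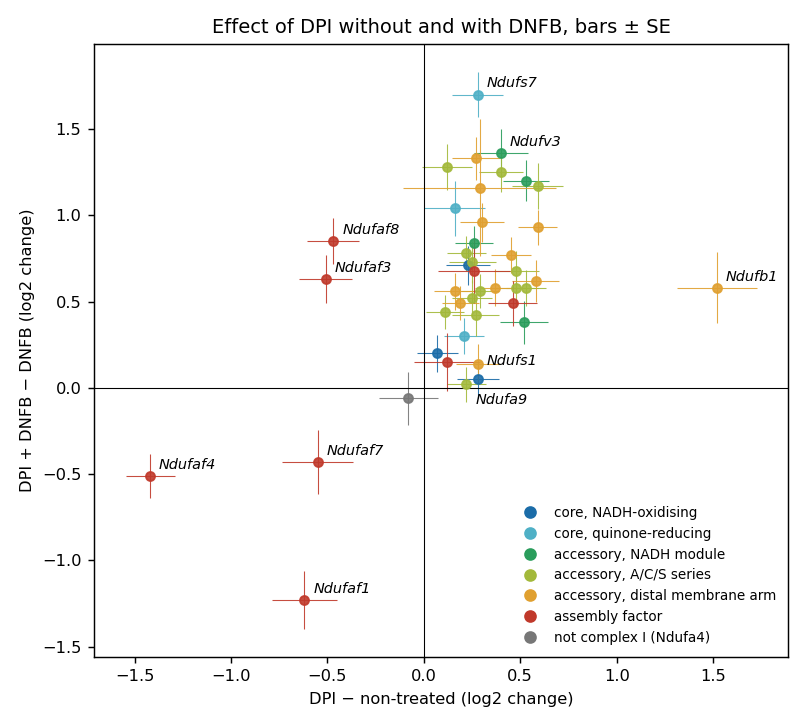
Effect of DPI on each of the 43 Nduf genes without DNFB (x axis, log2) and with DNFB (y axis, log2), with bars of ± SE and colours by role. The 34 subunits lie to the right of and above 0, and Ndufaf4, Ndufaf1 and Ndufaf7 lie in the lower left.

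The effects of DPI without and with DNFB come from different arrays and can be set side by side. Of the 43 genes, 17 rose in both and 2, Ndufaf1 and Ndufaf4, fell in both, against 5.53% and 8.2% of all genes. Across the 43 genes the effects correlated at r = 0.507, and across the 34 subunits alone at r = 0.0653. Genes are not independent replicates, and all of them share the same arrays and scaling. The genes Ndufaf3 and Ndufaf8 fell with DPI alone and rose with DPI in the presence of DNFB, as 2.63% of all genes did. In the same manner the effects of DNFB without and with DPI correlated at r = -0.247 across the 43 genes and r = -0.0646 across the subunits.

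Of the mitochondrially encoded subunits, ND5 alone could be tested. It codes for the terminal proton-pumping subunit of the membrane arm. It read 19232, 20527 and 19313 in non-treated cells, 21731, 24579 and 18961 with DNFB, 13396, 11277 and 16379 with H2O2, 11454, 9900 and 10378 with DPI, and 51596, 39380 and 56451 with DPI + DNFB. Its DPI and H2O2 arrays lay below all non-treated ones, and its DPI + DNFB arrays above every other array. It fell with DPI (-0.9 ± 0.143, adjusted p = 7.41e-05), where all 34 nuclear subunits had a positive change, and rose in DPI + DNFB against DPI (2.2 ± 0.143, adjusted p = 3.04e-08).

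Complex I assembly also uses factors without an Nduf name, of which 12 of 13 listed could be tested. With DPI alone 5 of the 12 fell, against 18.4% of all genes, with a median of -0.48, and with H2O2 5 of 12 fell, against 17.4%, with a median of -0.41. The oxidoreductase Chchd4, which imports cysteine-paired proteins, fell with DPI (-1.04 ± 0.164, adjusted p = 6.88e-05), and Tmem70 fell with DPI (-0.55 ± 0.141, adjusted p = 0.00514) and in DPI + DNFB against DNFB (-1.09 ± 0.141, adjusted p = 3.33e-06). Foxred1 rose in DPI + DNFB against DNFB (0.83 ± 0.152, adjusted p = 0.000168).

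Complex III is the next proton pump of the chain. Of its 14 genes tested, 7 rose and 2 fell with DPI alone (median 0.34), and 11 rose and 1 fell in DPI + DNFB against DNFB (median 0.82). Of all genes 13.3% rose and 18.4% fell in the first comparison and 22.9% and 21.3% in the second, and of those of highest signal 31.2% and 42.2% rose. Complex II, which feeds the same ubiquinone pool without pumping protons, gave 2 higher and 3 lower of 8 with DPI alone. In DPI + DNFB against DNFB it gave 2 higher and 1 lower. The counts for complexes II and III pool subunits and assembly factors. With DPI alone, the complex II subunits Sdha, Sdhb, Sdhc and Sdhd had a positive change. The complex II assembly factors Sdhaf1, Sdhaf2, Sdhaf3 and Sdhaf4 had a negative one. In complex III the assembly factors Bcs1l, Uqcc1 and Uqcc3 had a negative change, whereas Uqcc2 and Ttc19 had a positive one. Whether complex I differed from complexes II and III in its response was not tested.

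Regulators of mitochondrial gene expression did not share a direction. Of 11 measured, 2 rose and 3 fell with DPI alone, and 2 rose and 5 fell in DPI + DNFB against DNFB, with the same shares of all genes as for complex III. Gabpa, an ETS factor, rose with DPI (0.92 ± 0.132, adjusted p = 2.38e-05) and with DNFB (0.71 ± 0.132, adjusted p = 0.000418) and fell in DPI + DNFB against DPI (-0.99 ± 0.132, adjusted p = 2.93e-05). Tfam, which packages mitochondrial DNA, fell in DPI + DNFB against DNFB (-1.28 ± 0.128, adjusted p = 1.53e-07). The coactivator gene Ppargc1b fell with DNFB (-2.09 ± 0.404, adjusted p = 0.000609), from 431, 338 and 479 to 162, 19 and 152.

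The promoters of 4 members with large changes are shown for the letters they hold: Ndufs7 and Ndufaf8 for their reversal with DNFB, Ndufaf4 for its fall and Ndufb1 for its rise with DPI. RefSeq promoter windows of 250 bases before to 50 after a transcript start were at hand for 39 of the 43 genes. Both strands were searched for short exact words that stand for 4 factors known at promoters of respiratory genes: GCATGCGC for NRF1, CCGGAAGT for GABP and other ETS factors, AAGATGGCG for YY1 and TCAAGGTCA for ESRRA. Capitals mark the matches, the strand is that of the gene, and the 4 genes are Ndufs7 (chr10:80249199-80249498, plus strand), Ndufaf8 (chr11:120098684-120098983, plus strand), Ndufaf4 (chr4:24897833-24898132, plus strand) and Ndufb1 (chr12:101975689-101975988, minus strand), all in GRCm38.p6.
Ndufs7: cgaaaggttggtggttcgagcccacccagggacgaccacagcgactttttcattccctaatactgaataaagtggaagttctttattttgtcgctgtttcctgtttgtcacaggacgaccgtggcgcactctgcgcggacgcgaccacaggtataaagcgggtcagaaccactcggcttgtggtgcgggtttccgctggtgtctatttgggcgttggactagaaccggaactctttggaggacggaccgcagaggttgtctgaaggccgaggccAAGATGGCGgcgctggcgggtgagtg
Ndufaf8: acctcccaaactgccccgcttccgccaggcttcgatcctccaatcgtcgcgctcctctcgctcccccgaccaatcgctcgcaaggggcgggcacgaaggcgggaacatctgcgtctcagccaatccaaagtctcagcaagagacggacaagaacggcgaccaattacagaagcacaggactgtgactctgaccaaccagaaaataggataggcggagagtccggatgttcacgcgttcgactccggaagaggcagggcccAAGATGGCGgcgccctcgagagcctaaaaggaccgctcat
Ndufaf4: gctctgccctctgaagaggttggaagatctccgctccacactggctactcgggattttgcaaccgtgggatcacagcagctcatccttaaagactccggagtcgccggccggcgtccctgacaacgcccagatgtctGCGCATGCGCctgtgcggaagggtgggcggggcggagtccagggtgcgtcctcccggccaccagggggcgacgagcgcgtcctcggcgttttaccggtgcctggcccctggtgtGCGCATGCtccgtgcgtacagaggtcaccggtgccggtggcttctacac
Ndufb1: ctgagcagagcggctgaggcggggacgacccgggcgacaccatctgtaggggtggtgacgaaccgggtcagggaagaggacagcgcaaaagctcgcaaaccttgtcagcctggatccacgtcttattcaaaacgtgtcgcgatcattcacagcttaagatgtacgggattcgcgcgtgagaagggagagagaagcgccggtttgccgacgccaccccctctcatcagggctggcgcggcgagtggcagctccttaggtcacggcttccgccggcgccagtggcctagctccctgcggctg

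Ndufs7 and Ndufaf8 each held AAGATGGCG once on the strand of the gene, starting at base 25 and base 11 of the transcript. Those letters contain ATG. The word was present at 5 of 39 Nduf genes (12.8%; Ndufs7, Ndufaf8, Ndufa9, Ndufc1 and Ndufs4), against 1.64% of 27025 genes with such windows. These 5 genes did not share a response: in DPI + DNFB against DPI, Ndufs7, Ndufaf8 and Ndufc1 rose, and Ndufa9 and Ndufs4 fell. Ndufaf4 held 3 matches to GCATGCGC, of which a pair overlaps on opposite strands and the other lies at the start, and this word was present at 4 of 39 Nduf genes (10.3%; Ndufaf4, Ndufaf5, Ndufa6 and Ndufa8) and 3.05% of all genes. The ETS word was present at Ndufs3 alone (2.56%, against 4.31% of all genes). TCAAGGTCA was in none of the 39 windows and in 0.466% of all genes, and Ndufb1, with the largest rise under DPI, held none of the 4 words in its window. A match of letters is not evidence of binding, and no match says only that these letters are not in this window.

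Further probe sets bear on how firmly a gene's value stands. The members had 41 other probe sets for 22 genes. For members that passed, these had the sign of the chosen probe set in 8 of 9 cases with DNFB, 6 of 6 with H2O2, 16 of 18 with DPI, 17 of 19 in DPI + DNFB against DPI, 31 of 37 in DPI + DNFB against DNFB and 19 of 22 in the interaction. They had that sign and also passed in 2, 1, 10, 7, 22 and 7 of these cases. The 3 of opposite sign in the interaction were all of Ndufc2: its chosen probe set gave 0.56, and the others gave -0.14, -0.04 and -0.61 and did not pass, at mean signals of 4731, 5105 and 92. In 1 of these cases, Ndufab1 in DPI + DNFB against DNFB, the other probe set passed with the opposite sign. It gave -1.31 (adjusted p = 0.0359) against 0.44, at a mean signal of 61. Members whose chosen probe set did not pass are not in these counts. Ndufab1 codes for the mitochondrial acyl carrier protein.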

How the data were processed

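Total RNA of 15 samples was hybridised to mouse expression arrays after 3' in vitro transcription labelling, per the labels' protocols. The deposited values are an intensity, a linear MAS5 signal per probe set, made by the authors with MAS5 in Affymetrix Expression Console, per the submitters' processing notes, with no version given. Depth does not apply to arrays, and their number limits the precision.

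Each array was rescaled to a 2% trimmed mean of 500, and log2(signal + 15) was taken, which draws folds of dim genes toward 1. Probe sets with a mean at or above the 40th percentile (6.22) were kept (27022), after 64 control probe sets were left out. The probe set of highest mean stood for its gene (12701 genes). Genes were named through the platform annotation, and coordinates through RefSeq's GRCm38.p6 table, which matched 12638 genes by identifier. All 15 arrays were fitted by group (limma 3.58.1, R 4.3.3; eBayes with an intensity trend, 10 residual degrees of freedom), and p-values were adjusted by Benjamini-Hochberg over all genes within each of 6 comparisons, at 0.05. Errors are the SE of the fit.

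Values on every array are given for the core subunits measured, for Ndufaf1 and, per comparison, for up to 4 of the largest rises and 4 of the largest falls that passed. Members, gene lists, roles and this rule were chosen with earlier results of these data known, and the words searched in promoters were chosen as known motifs. Not every gene of the complex is reported here. The steps were tested on simulated data. No arrays held identical values, and replicate arrays correlated at 0.946 to 0.973 across genes. Alternatives covered the pseudocount, the filter, the normalization, the mean of probe sets, the scaling target, the beta-actin ratio, the replicate block and each array left out.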

Additional observations from a re-analysis of the deposited data

Results flagged for a closer look

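The effect of DNFB differed between cells with and without DPI, by the interaction test in limma at an adjusted p below 0.05, for 17 Nduf genes, and each is given here as the effect with DPI minus that without it, on the log2 scale. Among the core subunits the difference was 1.42 for Ndufs7 (-0.47 without DPI and 0.94 with it), 0.88 for Ndufs8 (-0.39 and 0.48) and 0.48 for Ndufv1 (-0.31 and 0.17). Among the accessory subunits of the NADH module it was 0.96 for Ndufv3 (-0.13 and 0.83), 0.67 for Ndufa2 (0 and 0.67) and 0.58 for Ndufa12 (-0.1 and 0.48). In the A and C series it was 1.16 for Ndufa5 (-0.38 and 0.78), 0.85 for Ndufa13 (-0.2 and 0.65), 0.58 for Ndufa3 (-0.2 and 0.38), 0.56 for Ndufc2 (-0.3 and 0.26; its 3 other probe sets gave -0.14, -0.04 and -0.61) and 0.48 for Ndufc1 (-0.14 and 0.34). In the distal membrane arm it was 1.06 for Ndufb7 (-0.34 and 0.72), 0.66 for Ndufb8 (-0.28 and 0.37) and -0.94 for Ndufb1 (0.06 and -0.88). Among the assembly factors it was 1.32 for Ndufaf8 (-0.53 and 0.79), 1.14 for Ndufaf3 (-0.59 and 0.55) and 0.91 for Ndufaf4 (-0.37 and 0.53). The 22 other probe sets of the 17 genes had the same sign in 19 cases and also passed in 7. Those of Ndufs7, Ndufa5 and Ndufb7 gave 0.94, 1.04 and 0.87 and passed. For Ndufa12, a probe set of mean signal 7345 gave 0 (adjusted p = 0.994) and another gave 0.6 (adjusted p = 0.00881). Others did not pass: 0.21 for Ndufv1 (adjusted p = 0.38), 0.33 for Ndufaf4 (0.462) and 0.32 for Ndufs8 (0.259). Another of Ndufs8 gave 0.76 (0.00397).

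All 17 rest on the DPI + DNFB arrays, whose beta-actin 3'/5' ratio of 1.5 to 2.29 was above the 1.19 to 1.34 of the DPI arrays. With that ratio as a covariate 11 were called, and the calls over all genes went from 3945 to 2577. The cause of the change in number was not tested.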

How the results depend on the processing

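Over all alternatives, 138 counts of passing Nduf genes stayed within 1.5 times the reported count and 27 did not. The reported counts are 12 (DNFB), 9 (H2O2), 22 (DPI), 20 (DPI + DNFB against DPI), 36 (DPI + DNFB against DNFB) and 17 (interaction). With the values as deposited, where arrays of a group differ in scale, they were 0, 0, 0, 0, 6 and 0 in that order, with 0, 0, 2, 0, 19 and 4 at an unadjusted p below 0.05. With arrays centred on their median they were 5 for DNFB, 22 against DNFB and 10 for the interaction. On the arrays scaled to 500 alone, they were 0 for DNFB, 3 for H2O2, 10 for DPI and 13 against DPI, and within those scaled to 250, with 1 array a group but for DNFB, they were 1, 4, 10 and 7, with 7 for the interaction. With the beta-actin ratio as a covariate they were 1 against DPI and 11 for the interaction, and with cyclic loess, chosen after seeing the data, 14 for DPI. Leaving out the DPI + DNFB arrays, also chosen after seeing the data, gave 15, 9 and 23 for the single compounds. With each array left out in turn, they ranged from 4 to 15 for DNFB, 5 to 9 for H2O2, 16 to 23 for DPI, 13 to 20 against DPI, 32 to 36 against DNFB and 14 to 20 for the interaction. The median change moved beyond the spread between replicates for DPI with quantile normalization (0.15), against DPI when centred (-0.08), against DNFB when centred (0.31), as deposited (0.91) or within target 500 (0.72), for the interaction when centred (0.04), as deposited (0.65), within target 500 (0.45) or within target 250 (0.21), and for DNFB as deposited (-0.53). Named genes kept their direction in every refit, with the call in 909 and without it in 108, among them all 8 named for DPI + DNFB against DPI with the beta-actin covariate, whose changes then ran from -0.66 (Ndufb1) to 0.65 (Ndufaf8), with Ndufa9 at -0.58 as before and Ndufs4 at -0.06. The cause of these changes was not tested. As settings, the values as deposited mix targets, and the within-target fits hold fewer arrays.

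Same-numbered replicates of different groups correlated at -0.00273 to 0.144 in their deviations (30 pairs, median 0.0738, 9 over 0.1) and those of different number at -0.138 to 0.0484 (60 pairs, median -0.0328, 0 over 0.1). Same-numbered arrays thus deviated together more, weakly, but not every pair was over 0.1, and the numbers were not taken to pair the arrays. With the replicate block the counts were 15, 10, 24, 23, 36 and 20.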

Other observations

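Complex III was described above by its counts, and its named genes have values of their own. Bcs1l, the chaperone that inserts the iron-sulfur protein of complex III, fell with DNFB (-1.29 ± 0.167, adjusted p = 8.6e-06), with H2O2 (-0.98 ± 0.167, adjusted p = 0.000169) and with DPI (-0.83 ± 0.167, adjusted p = 0.000781). It read 733, 772 and 805 in non-treated cells, 327, 297 and 293 with DNFB, 356, 463 and 341 with H2O2, 389, 512 and 393 with DPI, and 689, 766 and 904 with DPI + DNFB. Like Ndufaf3, it lay below all non-treated arrays with each single compound and overlapped them in the combination. The interaction for Bcs1l was 2.14 ± 0.237 (adjusted p = 1.55e-06). Uqcrfs1, the iron-sulfur protein itself, read 4986, 3783 and 4454 in non-treated cells and 3465, 2849 and 2986 with DPI + DNFB, and was the complex III gene that fell against DNFB (-0.42 ± 0.134, adjusted p = 0.0145).

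Sdhaf4, an assembly factor of complex II, read 1741, 1661 and 1802 in non-treated cells, 617, 881 and 785 with DNFB, 736, 637 and 875 with H2O2, and 1410, 1442 and 1242 with DPI. Its arrays with DNFB or H2O2 did not overlap the non-treated ones, with falls of -1.19 ± 0.146 (adjusted p = 4.96e-06) and -1.21 ± 0.146 (adjusted p = 3.9e-06). These genes were chosen from the lists after their values were seen.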
